A study of Drosophila melanogaster with 6 samples.

Results

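The nuclear genes for mitochondrial ribosomal proteins were examined in S2R+ cells, a Drosophila line of embryonic origin with features of blood cells, upon knockdown (KD) of Hakai. They were chosen by name, as all protein-coding genes whose symbol begins with mRpL (large subunit) or mRpS (small subunit) followed by a number. The annotation held 73 such genes, of which 71 were among the 17559 gene identifiers of the count tables (47 large and 24 small subunit genes). Enough reads for a test were found for 70 of them (46 large and 24 small), among 7811 genes tested in all. The identifiers of mRpS5 and mRpS34 in the annotation were not matched in the count tables, and both genes were not analysed here. The remaining gene, mRpL53 (2R, 13954195 to 13955664, BDGP6), had 0 counts in all 6 libraries. All 829 bases of its exons lie within exons of CG33155 on the same strand.

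Mitochondrial ribosomes translate the messenger RNAs encoded by mitochondrial DNA, which specify core subunits of the respiratory chain and of the ATP synthase. Their ribosomal RNAs come from the mitochondrial genome, whereas their proteins are encoded in the nucleus, translated in the cytoplasm and imported. Many of these proteins descend from those of bacterial ribosomes, and others were added to the mitochondrial ribosome later in evolution. Mutants of Drosophila tko, which encodes the counterpart of bacterial S12, are known for developmental delay and seizures after mechanical shock.

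The study compared 3 libraries of control KD cells, treated with dsRNA against LacZ, with 3 libraries of Hakai KD cells, treated with dsRNA against Hakai. Hakai is known as a RING-type E3 ubiquitin ligase, here studied as a subunit of the complex that places the m6A mark on messenger RNA. In S2R+ cells the study found no ubiquitination site reproducibly lowered upon Hakai depletion. It proposes that Hakai is not active as a ligase there, or that the activity needs stimuli or its sites were missed. Per the labels, both groups were S2R+ cells of passages 8 to 10 that received 10 ug of dsRNA in 3 treatments over 6 days, and poly(A) RNA was sequenced. The question was which transcripts change in level when Hakai is depleted. LacZ is a bacterial gene, so that the control cells received dsRNA without a target of their own. The line is a single cell line in culture, and in such bulk libraries a smaller share of some cells and less RNA per cell cannot be told apart.

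The libraries held between 16041353 and 17288912 counts assigned to genes, of which 0.247 to 0.266% (40808 to 44459 counts) fell on the mitochondrial ribosomal protein genes. Control KD replicate 1 stood apart: a chi-square comparison of counts over genes gave 12.1 and 15.6 per degree of freedom against the other control libraries, compared with 2.34 between those and 5.14 to 8.58 among the Hakai KD libraries. The blood cell genes srp, ush, Pvr, Pxn and Hml and the receptor fz, the presence of which distinguishes S2R+ from other S2 lines, were found in all libraries, with Hml lowest at 160.4 to 295.4 normalised counts. NimC1, another blood cell gene, stayed at or below 6.31 normalised counts. Of the markers of other cell types, nSyb, Mhc and up were at 7.36 or less, elav was at 312.2 to 461.3, and vas and nos were not matched. Of the 6 line markers tested, 4 were called higher in Hakai KD: Hml, Pxn, fz and Pvr, by 0.56, 0.20, 0.24 and 0.12 on the log2 scale (adjusted p = 0.0043, 0.0037, 0.006 and, just below the threshold of 0.05, 0.05 after rounding, edgeR's quasi-likelihood test with Benjamini-Hochberg adjustment). The other tested ones, srp and ush, had log2 fold changes of -0.04 and -0.02 (adjusted p = 0.39 and 0.79, edgeR), and elav had -0.05 (adjusted p = 0.81). The call of Pvr was lost without any 1 of the 6 libraries (adjusted p = 0.06 to 0.14) and with library size alone (0.16). The part of these markers in the values below was not tested. Counts here called normalised were scaled to a common effective library size, the mean over the 6 libraries.

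The targeted transcript was depleted. Hakai (2L, 19580612 to 19582474) had 296.4, 329.5 and 298.1 normalised counts in control KD replicates 1 to 3 and 68.1, 72.6 and 77.8 in Hakai KD. No Hakai KD library came near a control library. Its mean fell from 308 ± 18.6 to 72.8 ± 4.85 (SD, n = 3 each), a log2 fold change of -2.08 (SE 0.0936, adjusted p = 1.8e-07, edgeR's quasi-likelihood test). Fits that left out 1 library gave -2.13 to -2.03.

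Few messenger RNAs of mitochondrial ribosomal proteins passed the test upon Hakai KD. A gene was called changed when its p from edgeR's quasi-likelihood test, adjusted by Benjamini-Hochberg over all 7811 genes, was below 0.05. Of the 70 mitochondrial ribosomal protein genes tested, 2 were called (2.86%), mRpS25 and mRpS33, both small subunit genes and both lower in Hakai KD. Among all genes tested, 1195 were called, or 15.3%, with 592 higher (7.58%) and 603 lower (7.72%). Scaling by library size alone gave 374 higher and 922 lower among all genes (16.6% called) and 4 mitochondrial ribosomal protein genes, all lower. DESeq2 called none of the 70, against 810 of 7811 genes (10.4%) overall. Before adjustment, 5 of the 70 had p under 0.05 (29.8% of all genes did), and these 5 were all lower in Hakai KD.

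The fold changes of these genes lay in a narrow band around 0. Their log2 fold changes had a median of -0.0073, with 34 above 0 and 36 below, compared with a median of 0.0006 over all genes tested. The quartiles were -0.061 and 0.038, whereas those of all genes were -0.081 and 0.086. The values ran from -0.20 for mRpL33 to 0.21 for mRpS14, and the median distance from 0 was 0.049, against 0.084 over all genes. Only 1 of 70 exceeded 0.2 in either direction (1.43%), while 19.2% of all genes did. Their median SE was 0.0575 against 0.052 over all genes, at a median of 493 normalised counts against 756.

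A gene that misses the threshold is not thereby shown to be unchanged, so the intervals were examined. The 95% interval of the fold change lay within 1.25-fold in either direction for 67 of 70 genes (95.7%; 71.1% of all genes) and within 1.5-fold for all 70. The 3 genes with wider intervals were mRpL33, mRpL34 and mRpS14, whose group means lay between 167.6 and 274.4 normalised counts. These intervals are not adjusted for the number of genes.

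**Figure D1:**
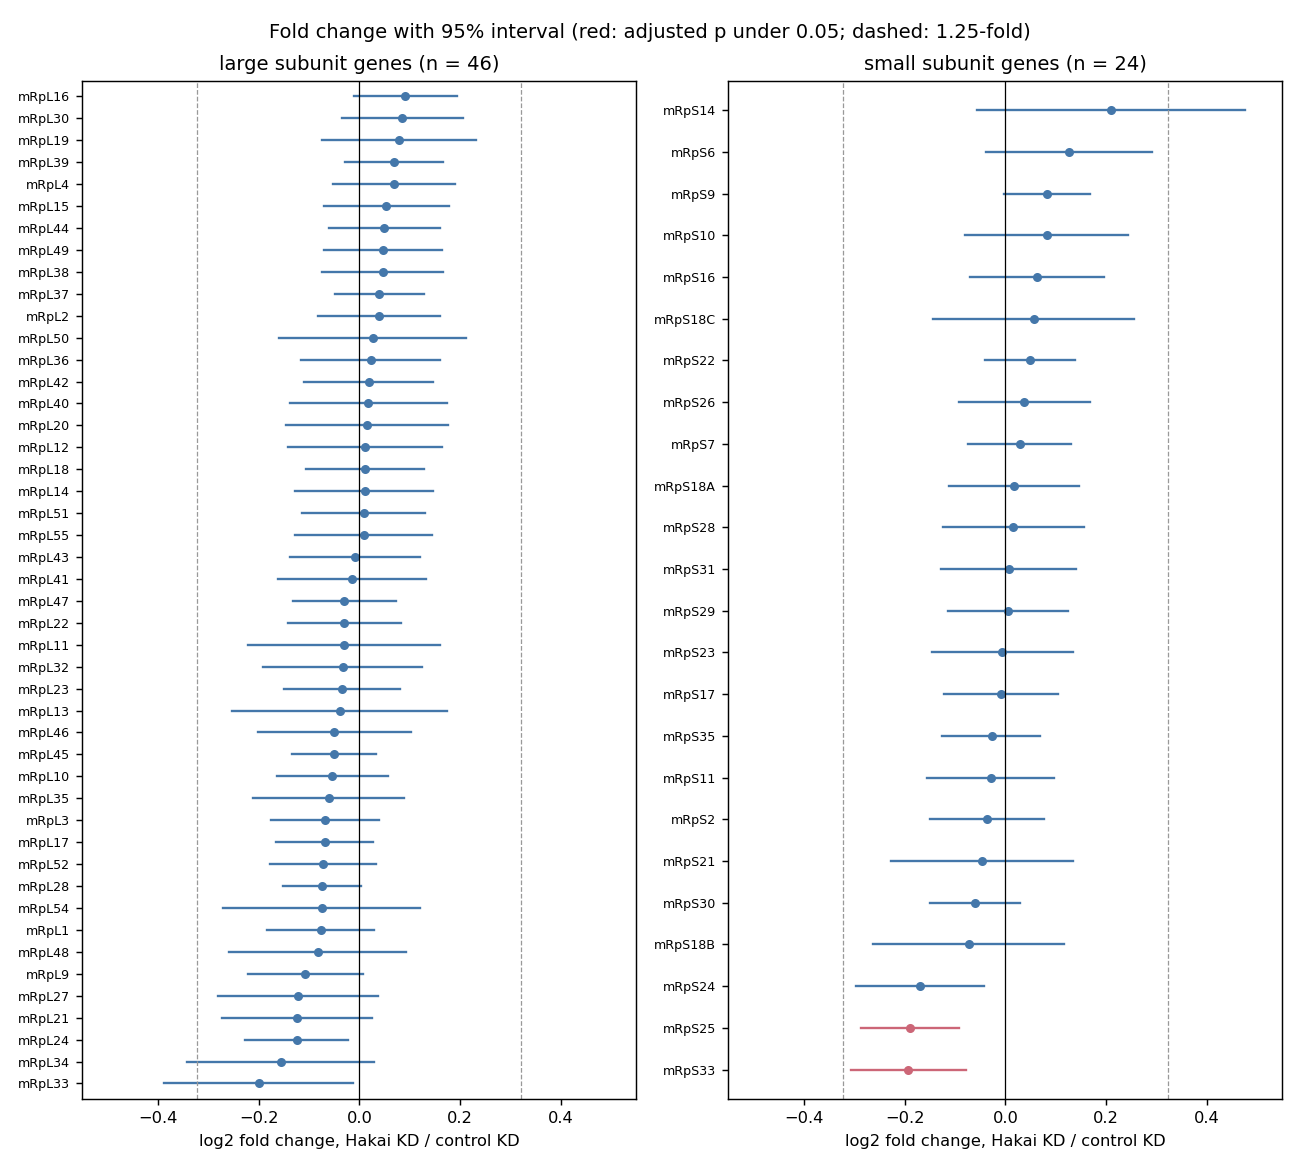
Log2 fold change of Hakai KD against control KD for each of the 70 mitochondrial ribosomal protein genes tested, with 95% intervals from edgeR's quasi-likelihood fit (3 libraries per group). The values run from -0.20 to 0.21, and only mRpS25 and mRpS33 passed the adjusted threshold.

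**Figure D2:**
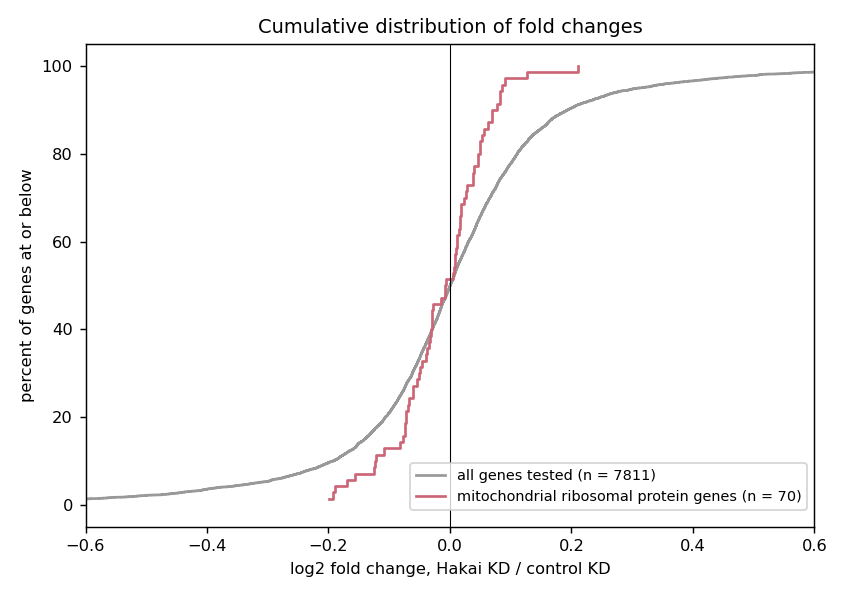
Cumulative share of genes by log2 fold change (Hakai KD against control KD) for the 70 mitochondrial ribosomal protein genes and for all 7811 genes tested, some of which lie beyond the horizontal axis. The curve of the former is steeper around 0, with quartiles of -0.061 and 0.038 against -0.081 and 0.086.

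mRpS25 (X, 14582136 to 14582982, minus strand) encodes mS25, a small subunit protein with no bacterial counterpart. It had 649.5, 640.7 and 665.6 normalised counts in control KD replicates 1 to 3, and 557.1, 579.1 and 578.2 in Hakai KD. All Hakai KD libraries lay below all control libraries, and the libraries of each group lay close together. The mean fell from 651.9 ± 12.6 to 571.5 ± 12.4 (SD, n = 3 each), a decrease of 12.3%. The log2 fold change was -0.19 (SE 0.0446, 95% interval -0.287 to -0.092, adjusted p = 0.015 by edgeR's quasi-likelihood test with Benjamini-Hochberg adjustment). Over the alternatives tried, the adjusted p ranged from 0.0064 to 0.10: the call was lost with DESeq2 and, at 0.054, without Hakai KD replicate 1. A permutation of the library labels gave an exact two-sided p of 0.1, the smallest that 3 against 3 libraries allow.

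mRpS33 (3R, 16436045 to 16436597, minus strand) encodes mS33, also a protein of the small subunit that bacteria lack. Its normalised counts were 542.7, 503.3 and 534.1 in control KD and 456.5, 474.1 and 451 in Hakai KD. The groups did not overlap here either, and control KD replicate 2 was the library nearest to Hakai KD. The mean fell by 12.5%, from 526.7 ± 20.7 to 460.5 ± 12 (SD, n = 3 each), with a log2 fold change of -0.19 (SE 0.052, 95% interval -0.307 to -0.079, adjusted p = 0.028, edgeR's quasi-likelihood test). This call was lost without control KD replicate 1 (-0.17, adjusted p = 0.084), control KD replicate 3 (-0.18, 0.072), Hakai KD replicate 1 (-0.19, 0.078) or Hakai KD replicate 3 (-0.18, 0.072), and with DESeq2 (adjusted p = 0.15). The range over all alternatives was 0.014 to 0.15.

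Both genes share a few exon bases with a neighbour on the opposite strand, and whether reads were counted by strand is not given in the sources used here. CG14414 overlaps mRpS25 by 39 bases (6.08% of its exon length) and had a log2 fold change of -0.20 (SE 0.119, adjusted p = 0.29, edgeR). CG14881 overlaps mRpS33 by 22 bases (4.48%) and had a log2 fold change of 0.09 (SE 0.113, adjusted p = 0.64, edgeR). The share of the reads that lies in these bases was not tested.

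The other genes with an unadjusted p under 0.05 were mRpS24, mRpL24 and mRpL33, named here after their values were seen. mRpS24 (3R) encodes the counterpart of bacterial S3, which lies where messenger RNA enters the small subunit. It had 386.8, 367.9 and 379.9 normalised counts in control KD and 346.7, 322.9 and 339.6 in Hakai KD, without overlap. Its log2 fold change of -0.17 (SE 0.0576) had an adjusted p of 0.07 with edgeR's quasi-likelihood test. With library size alone it was -0.20 with adjusted p = 0.037. TBC1d7 covers 332 bases of its exons, or 55.3%, on the opposite strand, and had 328.4 normalised counts in control KD and 317 in Hakai KD.

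mRpL24 (2L) encodes a protein placed near the exit of the tunnel through which the new chain leaves the large subunit. Its normalised counts were 825.6, 801.1 and 804.3 in control KD against 717.7, 724.3 and 789.6 in Hakai KD. Hakai KD replicate 3 came close to the controls, the other Hakai KD libraries did not. The log2 fold change was -0.12 (SE 0.0467, adjusted p = 0.098, edgeR's quasi-likelihood test). Without Hakai KD replicate 3 it was -0.17 with adjusted p = 0.035, and with library size alone -0.16 with adjusted p = 0.044.

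mRpL33 (X), the counterpart of bacterial L33, had the most negative log2 fold change of the 70, -0.20 (SE 0.0852, 95% interval -0.387 to -0.013, adjusted p = 0.14 by edgeR). Its normalised counts were 222.3, 267 and 244.3 in control KD and 222.6, 214.9 and 200.8 in Hakai KD. Control KD replicate 1 lay within the range of the Hakai KD libraries. mRpL34, with another counterpart of a bacterial protein, had 194.4, 177.7 and 188.4 normalised counts against 155.5, 171.8 and 175.6, and a log2 fold change of -0.16 (adjusted p = 0.24, edgeR).

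No gene was called higher. The most positive log2 fold change, 0.21 (SE 0.121, adjusted p = 0.27, edgeR's quasi-likelihood test), belonged to mRpS14 (X), whose product sits in the head of the small subunit. Its normalised counts were 225.2, 220.9 and 266 in control KD and 223.7, 277.8 and 321.7 in Hakai KD. The groups overlapped, the Hakai KD libraries were spread widely, and the SE was the largest of the 70. Exons of other genes cover 35.8% of mRpS14, among them 255 bases of Naa15-16 on the opposite strand. Naa15-16 had 3897 normalised counts in control KD and 3868 in Hakai KD, far more than mRpS14.

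The other positive values were smaller. mRpS6, a platform protein of the small subunit, had 221.3, 260.3 and 245.3 normalised counts in control KD and 265.3, 261.1 and 267 in Hakai KD. All Hakai KD libraries were above all controls, by less than 1 count in the closest pair. The log2 fold change was 0.13 (adjusted p = 0.29, edgeR's quasi-likelihood test). mRpS9, a protein of the small subunit head, had 1087, 1118 and 1171 against 1189, 1188 and 1196, again without overlap, and a log2 fold change of 0.08 (adjusted p = 0.18, edgeR). mRpL16, which borders the peptidyl transferase centre, had 1164, 1294 and 1262 against 1269, 1337 and 1356, with overlap, and a log2 fold change of 0.09 (adjusted p = 0.22, edgeR).

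The normalised counts of the groups did not overlap for 11 of the 70 genes (15.7%), and for 34.9% of all genes tested. The genes with all Hakai KD libraries lower were mRpL9, mRpL24, mRpL28, mRpL34, mRpS24, mRpS25 and mRpS33. Those with all Hakai KD libraries higher were mRpL37, mRpL39, mRpS6 and mRpS9. Of these, mRpL28 had 1347, 1302 and 1356 normalised counts in control KD and 1259, 1276 and 1268 in Hakai KD. The gap between the groups was small against the level, as reflected in a log2 fold change of -0.07 (adjusted p = 0.19, edgeR's quasi-likelihood test). mRpL39 had 625.5, 629.1 and 614.9 against 677.1, 641.9 and 642.4, a log2 fold change of 0.07 (adjusted p = 0.33, edgeR).

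**Figure D3:**
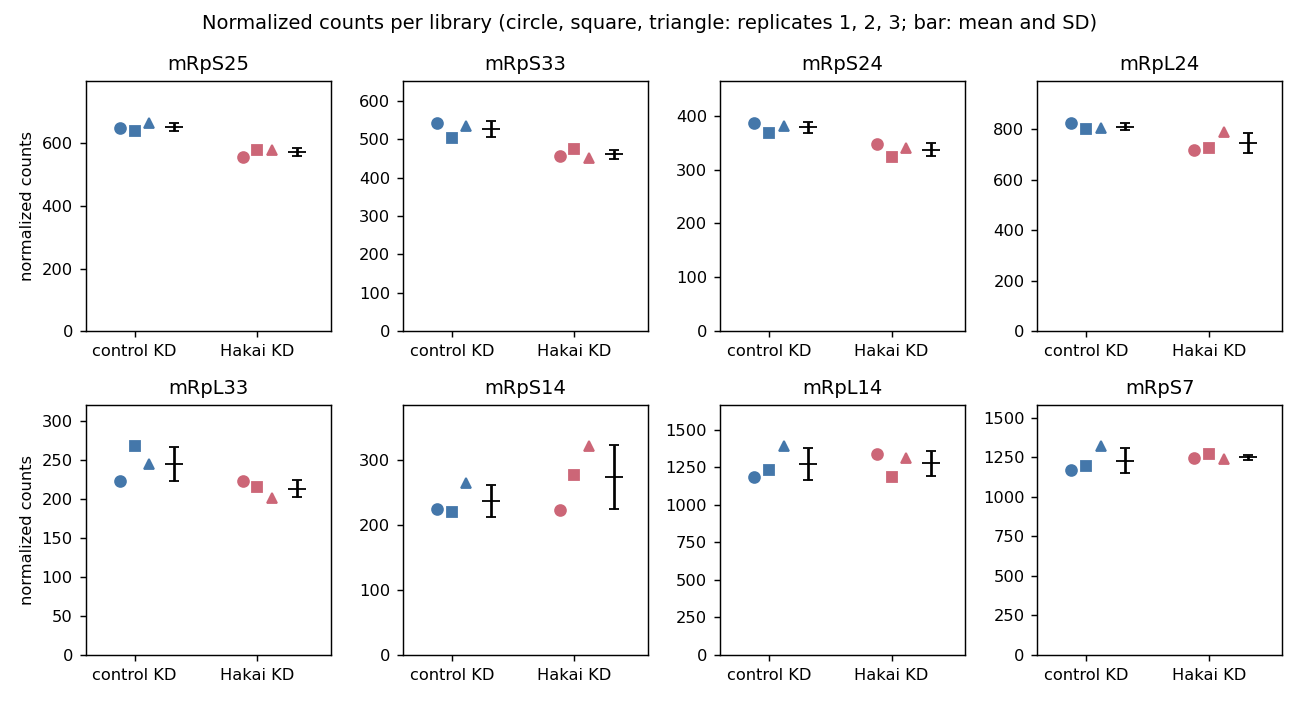
Normalised counts (vertical axes, from 0) of 8 genes in each control KD and Hakai KD library, with replicates 1 to 3 as circles, squares and triangles and the mean with SD beside them. The groups are apart for mRpS25, mRpS33, mRpS24 and mRpL24 and overlap for mRpL33, mRpS14, mRpL14 and mRpS7.

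When the genes were divided by subunit, none of the 46 large subunit genes was called by edgeR or by DESeq2, and 2 of them had an unadjusted p under 0.05. Their median log2 fold change was -0.0223, with values from -0.20 to 0.09. Of the 24 small subunit genes, 2 were called by edgeR (8.33%) and none by DESeq2, and their median was 0.0061, with values from -0.19 to 0.21. Over all genes tested, edgeR called 15.3% and DESeq2 10.4%, and 29.8% had an unadjusted p under 0.05. Origin was assigned by symbol number. Large subunit genes up to 36 and small ones up to 21 were taken to have a bacterial counterpart, plus mRpL55, mRpS24 and mRpS28. This rule places mRpL47, the counterpart of bacterial L29, among the mitochondria-specific genes (log2 fold change -0.03, adjusted p = 0.72, edgeR), which was not corrected. By this rule, none of the 44 genes with a bacterial counterpart was called by either tool, and 3 had an unadjusted p under 0.05. Both called genes were among the 26 mitochondria-specific ones, 9 of which are small subunit genes. The medians were -0.019 and -0.0003. Symbols follow the annotation: in mammals the products of mRpS30 and mRpS18A sit in the large subunit.

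The genes were also grouped by the place of their products in the ribosome, as known from bacterial and mammalian structures, a grouping made after values were seen. No gene of these 6 places was called by edgeR or DESeq2, and only mRpL24 had an unadjusted p under 0.05. The listed stalk genes (mRpL1, mRpL10, mRpL11, mRpL12) had log2 fold changes from -0.08 to 0.01. mRpL10 had 1011, 1044 and 1113 normalised counts in control KD and 991.2, 978.6 and 1082 in Hakai KD, and the groups overlapped. Around the peptidyl transferase centre, where peptide bonds form (mRpL2, mRpL3, mRpL16, mRpL27), the values ran from -0.12 to 0.09. mRpL27 had 287.7, 321.8 and 337.5 against 280.6, 300.3 and 288.1 normalised counts.

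The listed tunnel exit genes (mRpL22, mRpL23, mRpL24, mRpL45) had log2 fold changes from -0.12 to -0.03. Others whose products lie near the exit in mammals were not listed, such as mRpL39 (0.07), mRpL44 (0.05) and mRpL47 (-0.03). The listed genes of the central protuberance (mRpL18, mRpL38, mRpL40, mRpL46, mRpL48) ran from -0.08 to 0.05. The listed genes of the small subunit head (mRpS7, mRpS9, mRpS10, mRpS14, mRpS29) gave 0.01 to 0.21, with a median of 0.08. With library size alone, mRpS7 and mRpS29 of this group were below 0, at -0.01 and -0.03. Head proteins left out of the list include mRpS24 (-0.17), mRpS33 (-0.19), mRpS35 (-0.03) and mRpS31 (0.01), so the positive values hold only for the genes listed. mRpS29 is the counterpart of the mammalian GTPase DAP3, and had 720.8, 711.7 and 747.4 normalised counts in control KD against 672, 776.4 and 738 in Hakai KD. The platform genes (mRpS6, mRpS11, mRpS18C, mRpS21) had values from -0.05 to 0.13. mRpS6, the first of these, is described above.

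Per length of exon, the genes of the family were expressed within a 9.13-fold range. Levels are given as CPM (counts per 1000000 counts of the library's effective size) per kilobase of exon, averaged over the control KD libraries. The 70 genes had a median of 37.6, with quartiles of 30.2 and 54.7, and the median over all genes tested was 20.5. Large subunit genes had a median of 38.2 and small subunit genes of 35.2. By the same rule of origin, genes with a bacterial counterpart had a median of 38.6 and mitochondria-specific ones of 34, with mRpL47 (41.6) counted among the latter.

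The highest levels per length belonged to mRpL14, mRpL45, mRpS7 and mRpL52. mRpL14, the counterpart of bacterial L14, was at 116 ± 9.81 in control KD and 117 ± 7.64 in Hakai KD (SD, n = 3 each). mRpL45, which in mammals anchors the ribosome to the inner membrane, was at 87.9 ± 3.24 and 84.9 ± 2.05. mRpS7, a protein of the small subunit head, was at 80.2 ± 5.22 and 81.7 ± 1.05, and mRpL52 at 75.1 ± 3.13 and 71.4 ± 2.31. In control KD mRpL14 was above the next gene by more than their SDs, whereas mRpL45 and mRpS7, and mRpS7 and mRpL52, were not apart by their SDs. Their log2 fold changes between the groups were 0.01, -0.05, 0.03 and -0.07, with adjusted p of 0.94, 0.41, 0.74 and 0.34 from edgeR's quasi-likelihood test.

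The lowest levels per length were those of mRpL21 at 12.7 ± 0.83 in control KD and 11.6 ± 0.544 in Hakai KD, mRpL11 at 15.1 ± 1.12 and 14.9 ± 0.841, mRpL13 at 15.3 ± 1.71 and 14.9 ± 0.654, and mRpS14 at 17.9 ± 1.87 and 20.6 ± 3.69. mRpL21 was below mRpL11 by more than their SDs in control KD, and the other neighbours in the order were not apart. mRpL13 shares 236 bases of exon, 35.2% of its length, with CG10602 on the same strand, and reads in shared bases cannot be assigned to one gene. The length used includes shared bases, so the level of mRpL13 may come out too low, as may that of mRpS14 (35.8% overlapped). How far their ranks depend on the overlap was not tested. The log2 fold changes of mRpL21, mRpL11 and mRpL13 were -0.12, -0.03 and -0.04 (adjusted p = 0.25, 0.85 and 0.83, edgeR). In raw abundance mRpS30 led the family, with 2168 ± 82.4 normalised counts in control KD and 2077 ± 82.5 in Hakai KD.

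The order of the genes was nearly the same in both groups. Of the 4 highest genes in control KD, 3 were among the 4 highest in Hakai KD, and 9 of the 10 highest and 9 of the 10 lowest were shared. Across the 70 genes, which are not independent replicates, the log2 levels of the groups had a Pearson r of 0.9927, given as a description.

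**Figure D4:**
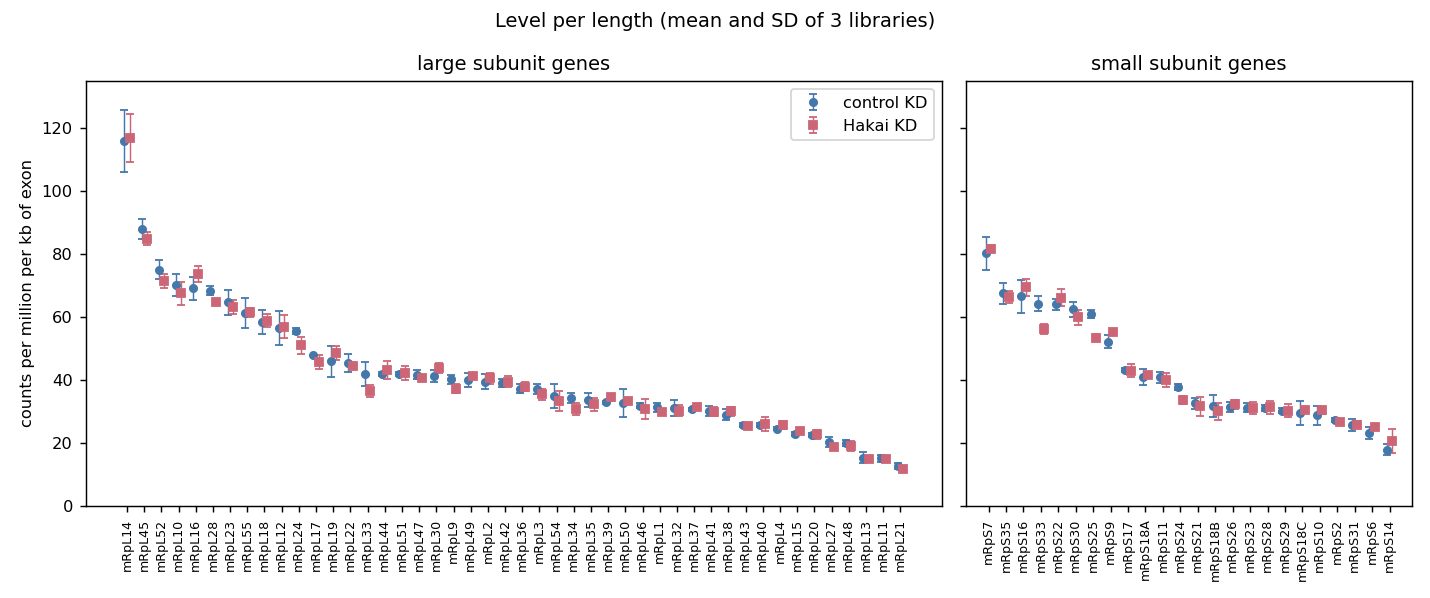
Level of each of the 46 large and 24 small subunit genes in CPM per kilobase of exon (vertical axis), ordered by control KD, with points and bars for the mean and SD of 3 libraries in control KD and Hakai KD. The levels run from mRpL21 at 12.7 and 11.6 to mRpL14 at 116 and 117, and the points of both groups lie close together for each gene.

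Summed over the 70 genes, each library held 2484, 2560 and 2644 CPM in control KD replicates 1 to 3 and 2531, 2517 and 2572 in Hakai KD replicates 1 to 3. The means were 2563 ± 80 and 2540 ± 28.6 (SD, n = 3 each), and all Hakai KD libraries lay within the range of the controls. The large subunit genes summed to 1584, 1635 and 1681 in control KD and 1618, 1590 and 1640 in Hakai KD, and the small subunit genes to 899.9, 924.5 and 962.8 against 913, 927.7 and 931.8. The ratio of the large to the small subunit sum was 1.71 to 1.77 over the 6 libraries.

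The sums of the control libraries differed more from each other than the group means did. Control KD replicate 1 was the lowest control for 37 of the 70 genes (52.9%; 36% of all genes tested), and control KD replicate 3 was the highest for 40 (57.1%; 34.5% of all genes). Hakai KD replicate 3 was the highest of its group for 33 genes (47.1%; 33.3% of all genes). The nuclear-encoded genes of the respiratory chain and the ATP synthase, which the mitochondrial ribosome serves, summed to 8891, 9353 and 9665 CPM in control KD and 8985, 9307 and 9406 in Hakai KD. The controls stood in the same order as for the mitochondrial ribosomal protein genes. The cytoplasmic ribosomal protein genes gave that order too (99450, 101200 and 104100 CPM in control KD replicates 1 to 3). The median log2 fold change of the mitochondrial ribosomal protein genes was -0.03 without control KD replicate 1 and 0.0156 without control KD replicate 3, with 1 gene called in either case.

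**Figure D5:**
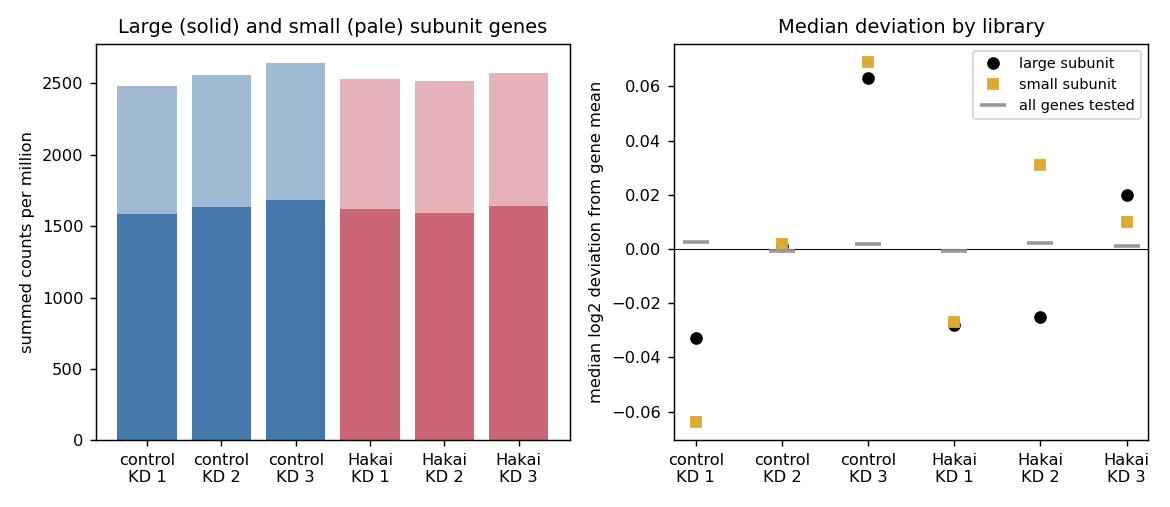
Left, CPM summed over the large (solid) and small (pale) subunit genes in each of the 6 libraries; right, the median over these genes of the log2 deviation from each gene's mean over the libraries, beside that of all genes tested. The sums run from 1584 to 1681 for the large and from 899.9 to 962.8 for the small subunit genes, and control KD replicate 1 lies lowest and control KD replicate 3 highest on the right.

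By chromosome, the medians of the log2 fold changes lay between -0.0466 and 0.0152. On 2L, 12 genes had a median of -0.0466 (3 above 0 and 9 below), and on 3L, 15 genes had a median of 0.0152 (10 above and 5 below). Of the 21 genes on 3R 1 was called, and of the 11 on the X chromosome 1 was called, with a median of 0.0103 on X compared with 0.0197 for all 1341 tested X-linked genes, of which 14.3% were called. None was called on 2L, 2R or 3L by edgeR or DESeq2. On 2L 1 gene, mRpL24, had an unadjusted p under 0.05, and on 2R and 3L none did.

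Overlap with other genes was common in the family: 41 of the 70 genes shared exon bases with 1 or more other genes, in 42 pairs, 40 of them on opposite strands. Both called genes were among the 41, which had a median log2 fold change of -0.0088, whereas the 29 without overlap had a median of 0.0083 and no call by edgeR or DESeq2 (1 at an unadjusted p under 0.05, mRpL33). Of the 37 neighbours that were tested, 2 were called, both higher (15.3% of all genes tested were called). Fkbp39 shares 5 bases with mRpL9 (log2 fold change 0.11, adjusted p = 0.047, edgeR), and frtz, a planar polarity gene, shares 164 bases, 20.8%, with mRpL48 (0.24, adjusted p = 0.036). Both calls were lost with DESeq2 (adjusted p = 0.077 and 0.17), and the call of either gene without any 1 of the 6 libraries. mRpL48, a gene of the central protuberance, had 271.4, 249.7 and 273.3 normalised counts in control KD and 226.7, 252.2 and 271.2 in Hakai KD.

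The other components of mitochondrial gene expression were examined as lists of known genes. The ribosomal protein genes tko and bonsai, which carry other symbols, showed no difference that passed the test. tko had 832.4, 875 and 910.9 normalised counts in control KD and 815.3, 885.3 and 854.7 in Hakai KD (log2 fold change -0.03, adjusted p = 0.68, edgeR's quasi-likelihood test). bonsai, the counterpart of bacterial S15, had 806.4, 781.8 and 843.7 against 810.3, 792.1 and 848.4 (0.01, adjusted p = 0.90). The mitochondrial ribosomal RNAs varied widely between libraries of poly(A) RNA. mt:lrRNA had 195202, 275204 and 283862 normalised counts against 286841, 254911 and 263971 (0.10, adjusted p = 0.61), and mt:srRNA had 106.8, 185.4 and 220.5 against 234.8, 123.7 and 157.7 (0.02, adjusted p = 0.98).

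Of 10 translation factors tested, none was called by edgeR or DESeq2, and their median log2 fold change was 0.0843. An unadjusted p under 0.05 was found for 2 of them (29.8% of all genes tested had one). These were mEFTu1, the elongation factor that delivers aminoacyl-tRNA, and mRF1, a release factor. mEFTu1 had 3359, 3440 and 3431 normalised counts in control KD and 3519, 3619 and 3842 in Hakai KD, without overlap. Its log2 fold change was 0.10 (SE 0.0356, adjusted p = 0.077, edgeR's quasi-likelihood test), and 0.11 with adjusted p = 0.039 when libraries were corrected for gene length, which called 16.7% of all genes and the same 2 mitochondrial ribosomal protein genes. mRF1 had 191.5, 182.5 and 189.4 against 222.6, 210 and 211.3 (0.19, adjusted p = 0.10, edgeR). The groups did not overlap for 2 of the 10 factors (20%), and for 34.9% of all genes tested.

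None of 9 genes for mitochondrial transcription and genome maintenance was called by edgeR or DESeq2, and 1 had an unadjusted p under 0.05. It was mTTF, a transcription termination factor of mitochondria, with 325.3, 320.8 and 323 normalised counts in control KD and 265.3, 269.9 and 315.4 in Hakai KD. Hakai KD replicate 3 lay close to the controls, and the log2 fold change of -0.19 (adjusted p = 0.11, edgeR) became -0.27 with adjusted p = 0.028 without it. No gene was called by either tool, nor had an unadjusted p under 0.05, among 5 genes for ribosome assembly and quality control proteases (median -0.0185), 8 for mitochondrial RNA processing and stability (median 0.0123) and 14 mitochondrial aminoacyl-tRNA synthetases (median -0.022, with 4 above 0 and 10 below).

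For comparison, 20 of 75 cytoplasmic ribosomal protein genes were called by edgeR (26.7%, against 15.3% of all genes tested), all higher, with a median log2 fold change of 0.0835. DESeq2 called 24 of them and edgeR with a replicate block 30. Of 61 nuclear-encoded genes of the respiratory chain and the ATP synthase, 4 were called by edgeR (6.56%), all lower, with a median of -0.0125. DESeq2 called 2 of these and edgeR with the replicate block 7. The cytoplasmic ribosomal protein genes summed to 99450, 101200 and 104100 CPM in control KD and 101200, 112400 and 111800 in Hakai KD, so that Hakai KD replicates 2 and 3 lay above all controls. The difference between these groups of genes and the mitochondrial ribosomal protein genes was not tested.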

How the data were processed

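Poly(A) RNA of S2R+ cells was sequenced in 6 directional libraries (3 control KD, 3 Hakai KD). The authors mapped single reads with STAR (version 2.5.1b in the submitters' processing notes, build BDGP6), counted them per gene with featureCounts (version 1.5.1) and deposited raw counts, without normalisation or pooling. Whether counting used strand, and how reads with several places were treated, is not given in the sources used here. Reads in exons shared by genes may thus be lost or assigned to 1 of them. The examined genes mRpL53, mtTFB1, PolG2 and SLIRP1 lie wholly within same-strand exons of another gene, and each had 0 counts in all 6 libraries.

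The comparison used edgeR 4.0.16 under R 4.3.3, with the filter filterByExpr (minimum count 10, minimum total 15), TMM scaling, no covariates, and quasi-likelihood p-values with Benjamini-Hochberg adjustment over all 7811 genes (threshold 0.05). SEs are the absolute log2 fold change over the square root of F. Symbols, positions and exon lengths (union of exons) came from Ensembl release 115 (BDGP6.54), in which 17253 identifiers of the tables were found and 306 were not. Alternatives were DESeq2 1.42.0, limma-voom 3.58.1, other scalings and filters, leaving out the 10 most abundant genes, a replicate block, a loess correction for gene length (span 0.3) with and without that block, and leaving out each library. The test was checked on simulated counts, but with changes larger than any log2 fold change of the 70 genes in the edgeR comparison. The check thus did not cover changes of their size.

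The members and gene lists were chosen with earlier results of these data known. Genes were named by a rule: those called, the 4 highest and 4 lowest per length in control KD, those left out by the filter, and Hakai, tko, bonsai, mt:lrRNA and mt:srRNA. All others were named after their values were seen. The labels number the replicates 1 to 3 in both groups and do not say that a number marks a shared culture or day. The study calls the libraries biological replicates, but the labels name no separate cultures, so that p-values measure only the spread between these samples, which may be technical. Counts of PCR reads without molecular identifiers are not independent molecules. A planned search for promoter motifs was not run, and no sequences were used here.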

Additional observations from a re-analysis of the deposited data

How the results depend on the processing

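The median SE of the mitochondrial ribosomal protein genes was 0.0575 (log2) at a median of 493 normalised counts, close to the 0.052 of all genes, whereas their median distance from 0 was 0.049 against 0.084. Whether depth limited the calls was not tested. DESeq2 called 0 mitochondrial ribosomal protein genes and 395 of all genes lower. Scaling by library size alone called 4 mitochondrial ribosomal protein genes, all lower, and 374 genes higher and 922 lower among all genes, as it moved the median log2 fold change of all genes to -0.0348 and that of these genes to -0.0426. Fits that left out 1 library called 0 to 2 mitochondrial ribosomal protein genes, all lower, and 708 to 1014 of all genes (328 to 521 higher, 380 to 509 lower). Those calls were fewest without Hakai KD replicate 1 for the mitochondrial ribosomal protein genes and without control KD replicate 2 for all genes (708, against 1195). The median of the mitochondrial ribosomal protein genes then ran from -0.03 to 0.0156. The cause was not tested.

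With a replicate block, 2 mitochondrial ribosomal protein genes (mRpS25, mRpS33) and 1152 of all genes were called, and with the block and a length correction 2 and 1094. The block changed no call among these genes. No shared deviation of same-numbered libraries was seen: the correlations of their deviations were -0.076, -0.033 and -0.075 over 7811 genes. These values cannot tell whether same-numbered libraries shared a culture or day.

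Log2 fold changes that were not called changed sign in places. With library size alone, mRpL14 was at -0.024, mRpS7 at -0.007, bonsai at -0.024 and mt:srRNA at -0.019. Leaving out 1 library gave -0.038 to 0.079 for mRpL14, -0.006 to 0.081 for mRpS7, -0.088 to 0.053 for mRpL13, -0.077 to 0.028 for mRpL11, -0.018 to 0.04 for bonsai, -0.166 to 0.095 for elav, -0.058 to 0.191 for mt:lrRNA and -0.277 to 0.233 for mt:srRNA. Levels per length from the longest annotated transcript gave the same 4 highest and 4 lowest genes. For each of these the longest transcript is as long as the union of exons, so this check could not move their own levels.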
